A study of Oryctolagus cuniculus with 24 samples.

Results

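CR2 encodes complement receptor 2 (CD21), and its row is 1 of 23428 genes in a table of RNA sequencing counts from keratocytes, the cells that live in the stroma of the cornea, here from rabbits. It was selected on its counts, which were high with TGF-β1 and near 0 elsewhere, so that difference is described here and not tested. All 24 libraries of the 3 culture conditions were used, together with the 9 genes whose bodies lie within 200 kb of CR2, which show whether its neighbours changed with it. Primary keratocytes at the first passage sat on glass coated with collagen for 6 days in every condition. In the TGF-β1 condition, the submitters' myofibroblasts, serum-free medium carried 5 ng/mL TGF-β1 at both medium changes (days 1 and 3). In the FBS condition, their fibroblasts, serum-free medium was replaced on day 3 by DMEM with 10% fetal bovine serum. In the serum-free condition, their keratocytes, serum-free medium was used throughout. Each condition has 8 libraries. Serum, base medium and the length of exposure therefore change together in the FBS condition. The labels name no strain, age or number of rabbits and do not say whether replicates are separate animals or cultures. The p-values measure the spread between these libraries, which may be technical.

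CR2 is a membrane receptor for C3d and iC3b, the fragments of complement component C3 that stay bound to a surface after complement has been activated. On B cells it sits in a coreceptor complex with CD81 and lowers the amount of antigen needed for B cell activation, and on follicular dendritic cells it holds complement-coated antigen in lymphoid follicles. The gene belongs to a chromosomal cluster of complement regulators built from short consensus repeats, which also holds CR1, CD46 and CD55.

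Total counts per library were 15410285 to 20911192 with TGF-β1, 15659561 to 22528261 with FBS and 17151397 to 21540864 in serum-free medium. The libraries numbered 5 to 8 (replicates 1 to 4, here set 1) and 9 to 12 (replicates 5 to 8, set 2) stood apart in all 3 conditions on the third principal component, which held 5.75% of the variance, so values are also given by set. Defining markers were checked against the labels. ACTA2, the smooth muscle actin of myofibroblasts, averaged 231 ± 125 CPM (counts scaled to library size, mean ± SD, n = 8 per condition here and below) with TGF-β1, 479 ± 221 CPM with FBS and 2.92 ± 2.10 CPM in serum-free medium. It was thus lower with TGF-β1 than with FBS (log2 fold change -1.05, edgeR adjusted p = 0.0127), although the FBS cells are labelled fibroblasts. KERA, the keratan sulfate proteoglycan keratocan of keratocytes, averaged 293 ± 46.2 CPM with TGF-β1, 237 ± 113 CPM with FBS and 8807 ± 1328 CPM in serum-free medium.

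CR2 lies on the minus strand of chromosome 16 from 65002765 to 65038788, by the positions that the authors list beside the counts (genome build not given). The 8 TGF-β1 libraries held 14336 to 24624 CR2 counts each, against 1 to 38 in the 8 FBS libraries and 0 to 27 in the 8 serum-free libraries. On the CPM scale the TGF-β1 libraries had a lowest value of 1046, a median of 1276 and a highest value of 1436. The FBS libraries had 1.87, 1.39, 1.26, 1.38, 0.0495, 0.257, 0.491 and 0.214 CPM in replicates 1 to 8. The serum-free libraries had 1.22, 0.699, 0.261, 1.65, 0.330, 0.170, 0 and 0.235 CPM in replicates 1 to 8. Every TGF-β1 library was above every FBS and serum-free library, while the FBS and serum-free libraries overlapped. The 0 of serum-free replicate 7 allows a level of up to 0.169 CPM (3 counts), and this limit covers counting error only.

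**Figure D1:**
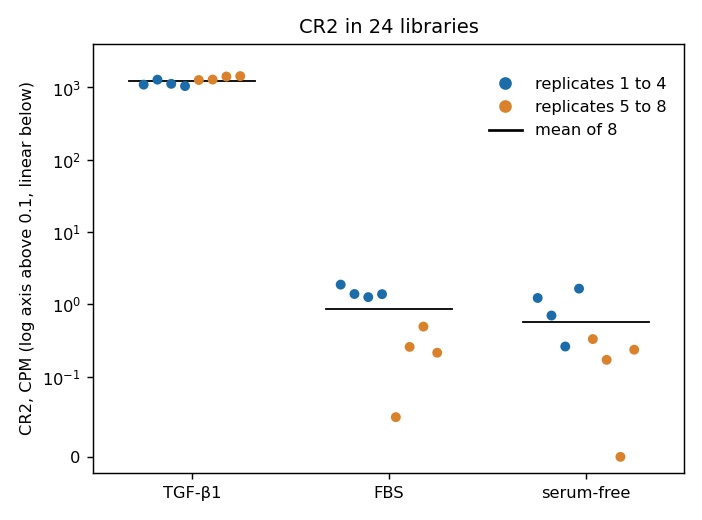
CR2 in CPM (counts scaled to library size, vertical axis, logarithmic above 0.1 and linear below) in each of the 24 libraries, with TGF-β1, FBS and serum-free medium from left to right; points are libraries, coloured by replicates 1 to 4 and 5 to 8, and lines are means of 8. The 8 TGF-β1 libraries sit between 1046 and 1436 CPM and the other libraries between 0 and 1.87 CPM.

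CR2 averaged 1245 ± 145 CPM with TGF-β1, 0.864 ± 0.687 CPM with FBS and 0.571 ± 0.580 CPM in serum-free medium. The ratio of the means was 2182 for TGF-β1 over serum-free medium and 1441 for TGF-β1 over FBS, and 99.8% of all CR2 counts lay in the TGF-β1 libraries. The fitted log2 fold changes were 11.09 (SE 0.49) against serum-free medium and 10.45 (SE 0.46) against FBS, given without a test. Among all 13308 genes tested, that of CR2 was the second largest against serum-free medium, after IBSP (11.34), the bone sialoprotein gene, which had 0 counts in all serum-free libraries. Against FBS it was the third largest, after GDF10 (11.84), a growth factor gene with 0 counts in all FBS libraries, and LTBP2 (10.61). The size of these folds rests on few counts in the low conditions (157 CR2 counts in the 8 FBS libraries together and 84 in the 8 serum-free libraries). Fitted in set 1 alone, the log2 fold change was 10.24 against serum-free medium and 9.60 against FBS, and in set 2 alone 12.75 and 12.38.

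Per length, CR2 reached 277 ± 33.1 FPKM (fragments scaled to gene length and library size) with TGF-β1, against 0.192 ± 0.153 FPKM with FBS and 0.128 ± 0.130 FPKM in serum-free medium. By mean FPKM it ranked 243 of 23428 genes with TGF-β1, 12862 with FBS and 14389 in serum-free medium. CR2 and SPP1, which encodes the secreted matrix protein osteopontin, were the 2 genes with at least 100 CPM in every TGF-β1 library and under 2 CPM in every other library. The lowest SPP1 value with TGF-β1 was 193 CPM and its highest value elsewhere 1.77 CPM. That only these 2 genes passed depends on the limit of 2 CPM, which lies just above the highest CR2 value elsewhere (1.87 CPM). LTBP2, LRRC15 and SLC37A2, described below, met the limit of 100 CPM but reached 5.45, 4.12 and 2.97 CPM in a serum-free library. Within the TGF-β1 libraries the coefficient of variation of CR2 was 11.6%. Its SD of 0.17 on the log2 scale was not low for genes of this abundance: of 1866 genes with a TGF-β1 mean of at least 100 CPM, 1057 (56.6%) varied less.

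The sets differed in opposite directions in the high and low conditions. With TGF-β1, CR2 averaged 1137 CPM in set 1 (1046 to 1283) and 1353 CPM in set 2 (1268 to 1436), ranges that overlap. With FBS it averaged 1.47 CPM in set 1 (1.26 to 1.87) and 0.253 CPM in set 2 (0.0495 to 0.491), ranges that do not overlap. In serum-free medium it averaged 0.957 CPM in set 1 (0.261 to 1.65) and 0.184 CPM in set 2 (0 to 0.330). The contractile genes of the TGF-β1 libraries ran the other way: ACTA2 averaged 338 CPM in set 1 (268 to 403) and 124 CPM in set 2 (115 to 136), and TAGLN (transgelin, which binds actin) 522 CPM (392 to 627) and 300.0 CPM (280 to 313). CR2 was thus not higher in the TGF-β1 libraries in which ACTA2 was higher. What the sets stand for is not given, and its part in these values was not tested.

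FBS and serum-free medium were both low in CR2 by its choice, and CR2 passed the filter on low counts through the TGF-β1 libraries, so the difference between them is given as a description with no test. The log2 fold change of CR2 with FBS against serum-free medium was 0.63 (SE 0.50, 95% interval -0.40 to 1.67). That interval spans ratios of 0.756 to 3.18 and holds the spread between libraries, including that between the sets. No conclusion on the direction is drawn from it. The difference was 0.65 in set 1 alone, 0.37 in set 2 alone and 0.97 without FBS replicates 5 and 6, which hold 2 of the lower FBS values.

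Of the 9 neighbours, 4 had enough counts to be tested, and against serum-free medium 1 of them rose with TGF-β1 (CD46) and 3 fell (CD55, LOC103350987 and LOC103350989). Their log2 fold changes ran from -2.07 to 2.76, while 64.3% of all genes tested were called in this comparison (31.2% higher and 33.1% lower). CD46 passed the filter on low counts only through the TGF-β1 libraries and LOC103350987 only through the serum-free libraries, where each was highest, so the count over these 4 genes says nothing about the neighbourhood as a whole. With FBS against serum-free medium all 4 fell, in a comparison that called 80.0% of all genes tested (39.5% higher and 40.5% lower). With TGF-β1 against FBS all 4 were higher, in a comparison that called 73.3% (36.9% higher and 36.4% lower) and that shares its TGF-β1 libraries with the first. The 5 other neighbours had too few counts to be tested in the same fit. Their mean levels were below 1.1 CPM in every condition.

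**Figure D2:**
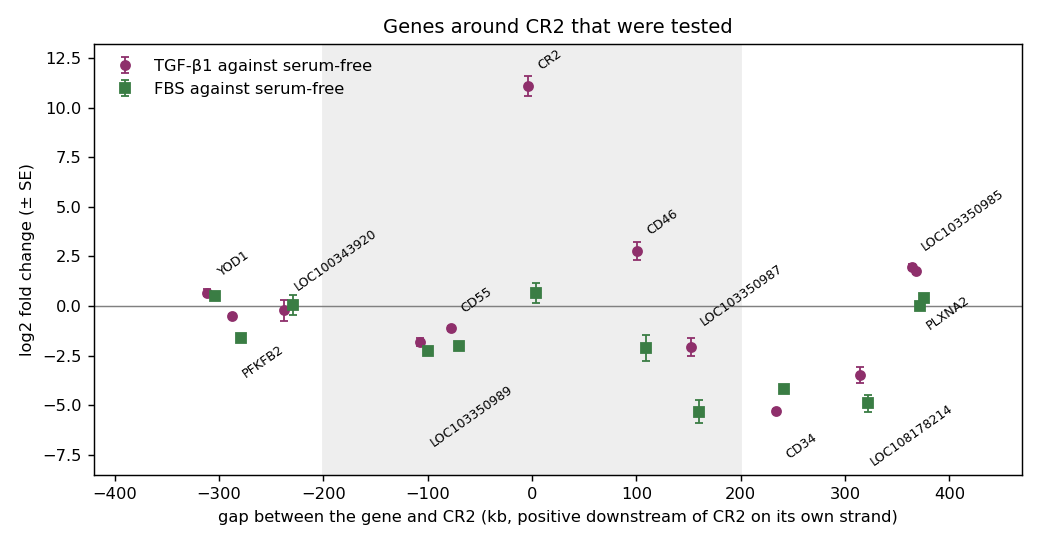
Log2 fold change of CR2 and of the tested genes around it (vertical axis, ± SE) against the gap between each gene and CR2 in kb (horizontal axis, positive downstream of CR2 on its own strand); circles give TGF-β1 against serum-free medium and squares FBS against serum-free medium, drawn slightly to either side of the gap, and shading marks 200 kb. CR2 stands at 11.09 with TGF-β1, and the 4 neighbours within 200 kb lie between -2.07 and 2.76 in that comparison.

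CR1, which encodes complement receptor 1, a receptor for C3b and C4b that helps factor I cut them, lies 5.284 kb downstream of CR2 on the same strand (chromosome 16, 64904883 to 64997481). It had 0.911, 1.29, 1.67, 1.68, 1.13, 0.644, 0.634 and 0.585 CPM in TGF-β1 replicates 1 to 8, 0 to 0.179 CPM (median 0.0257) with FBS and 0 to 0.455 CPM (median 0.151) in serum-free medium. All TGF-β1 libraries were above all others, at 134 counts in the 8 libraries together, against 9 in FBS and 25 in serum-free libraries. The mean of 1.07 ± 0.449 CPM with TGF-β1 exceeded 0.167 ± 0.135 CPM in serum-free medium (exact two-sided permutation test, p = 0.0001554, the smallest that 8 against 8 libraries can give, adjusted p = 0.00101 over 13 such tests). The difference between FBS and serum-free medium (0.0509 ± 0.0653 and 0.167 ± 0.135 CPM) did not pass (exact permutation p = 0.0311, adjusted p = 0.0808).

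CD46, the membrane cofactor protein with which factor I cuts C3b and C4b on the cell's own surface, lies further downstream on the same strand, 104.73 kb from CR2 (64861484 to 64898035). It had 2.21, 2.86, 1.84, 2.19, 1.63, 1.15, 0.864 and 0.975 CPM in TGF-β1 replicates 1 to 8, 0 to 0.246 CPM (median 0.0192) with FBS and 0 to 0.459 CPM (median 0.259) in serum-free medium. The TGF-β1 libraries were all above the others. CD46 rose with TGF-β1 by 2.76 on the log2 scale against serum-free medium (SE 0.46, edgeR adjusted p = 9.23e-06) and was 4.88 higher than with FBS (SE 0.56, edgeR adjusted p = 1.31e-08). It was tested because of its TGF-β1 counts, 15 to 51 a library, while no other library held more than 9. Fitted with no filter on low counts, the difference from serum-free medium was 2.79 (SE 0.50, edgeR adjusted p = 2.62e-05). It was lower with FBS than in serum-free medium (log2 fold change -2.12, edgeR adjusted p = 0.00418), a call that set 1 alone did not give (-1.74, edgeR adjusted p = 0.0547).

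CR1 and CD46 stayed far below CR2 in the same libraries. For every 1000 CR2 counts, the TGF-β1 libraries held 0.407 to 1.60 CR1 counts and 0.609 to 2.23 CD46 counts. The rise of both did not follow CR2 within the condition. CD46 gave 30 to 51 counts a library in set 1 and 15 to 23 in set 2, and CR1 gave 14 to 29 in set 1 and 9 to 16 in set 2, while CR2 averaged higher in set 2. In proportion to CR2, CD46 was at 1.64 to 2.23 per 1000 in set 1 and 0.609 to 1.28 in set 2, with no overlap, and CR1 at 0.831 to 1.60 in set 1 and 0.407 to 0.894 in set 2. CR1 and CR2 share repeated sequence, and how the authors' counting placed reads that match both is not given, so the low CR1 counts beside a gene as abundant as CR2 are uncertain. Whether transcription that runs on past CR2 or misplaced reads contribute to them was not tested.

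CD55, or decay-accelerating factor, which takes apart the C3 convertases on the cell surface, lies upstream of CR2 by 73.88 kb on the same strand (65112668 to 65141148). It had 69.5 to 93.9 CPM (median 75.9) with TGF-β1, 36.9 to 51.3 CPM (median 42.2) with FBS and 127 to 229 CPM (median 173) in serum-free medium. The 3 conditions did not overlap, and the order was the same in both sets. CD55 fell by 1.13 on the log2 scale with TGF-β1 (log2 fold change -1.13, SE 0.11, edgeR adjusted p = 1.16e-09) and by 1.99 with FBS (log2 fold change -1.99, SE 0.11, edgeR adjusted p = 6.77e-15), both against serum-free medium. CD55 was thus lower where CR2 was higher in the comparison with serum-free medium.

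The remaining neighbours are genes known only by number in the table. LOC103350988 runs on the opposite strand and begins 19.626 kb upstream of CR2. In the RefSeq table of another assembly (mOryCun1.1) it is a long non-coding RNA gene whose span holds CR2 and CR1. It had 30 counts in all TGF-β1 libraries together (0 to 0.501 CPM), 0 in the FBS libraries, which allows up to 0.0171 CPM, and 26 in the serum-free libraries (0 to 0.529 CPM). It differed between FBS and serum-free medium (exact permutation p = 0.00140, adjusted p = 0.00455), and its TGF-β1 and serum-free values overlapped (exact permutation p = 0.499). By the positions listed beside the counts, LOC103350988 (65058414 to 65081260) does not overlap CR2. Whether the counting used strand is not given, so reads from opposite strands of one place cannot be told apart.

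LOC103350987, on the opposite strand 156 kb downstream, spans the microRNA genes MIR29C and MIR29B-2 in the RefSeq table. It averaged 1.75 ± 1.21 CPM with TGF-β1, 0.177 ± 0.128 CPM with FBS and 7.32 ± 5.51 CPM in serum-free medium. It fell with TGF-β1 (log2 fold change -2.07, edgeR adjusted p = 0.000296) and with FBS (-5.32, edgeR adjusted p = 3.28e-09). It was tested because of its serum-free counts, 45 to 296 a library, against 9 to 48 with TGF-β1 and 1 to 10 with FBS. With no filter on low counts the differences were -2.04 (edgeR adjusted p = 0.000289) and -5.26 (edgeR adjusted p = 1.49e-09). Its level went with the sets: 0.645 CPM in set 1 and 2.85 CPM in set 2 with TGF-β1, and 3.00 CPM in set 1 and 11.6 CPM in set 2 in serum-free medium. LOC103350989, a long non-coding RNA gene in the RefSeq table that lies 103 kb upstream of CR2 and is transcribed away from CD55, fell with TGF-β1 (1.61 ± 0.586 CPM, against 5.65 ± 1.31 CPM in serum-free medium, log2 fold change -1.80, edgeR adjusted p = 1.41e-08). It was also lower with FBS (1.16 ± 0.145 CPM, log2 fold change -2.28, edgeR adjusted p = 7.93e-11). Its call between TGF-β1 and FBS (0.48, edgeR adjusted p = 0.0412) was lost with the replicate number as a block (edgeR adjusted p = 0.0668) and had the other sign in set 2 alone (-0.07). LOC108178151 had 8, 0 and 10 counts over the TGF-β1, FBS and serum-free libraries, and LOC103350990 and LOC100352436 had none with TGF-β1 or FBS and 4 and 10 in serum-free medium.

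**Figure D3:**
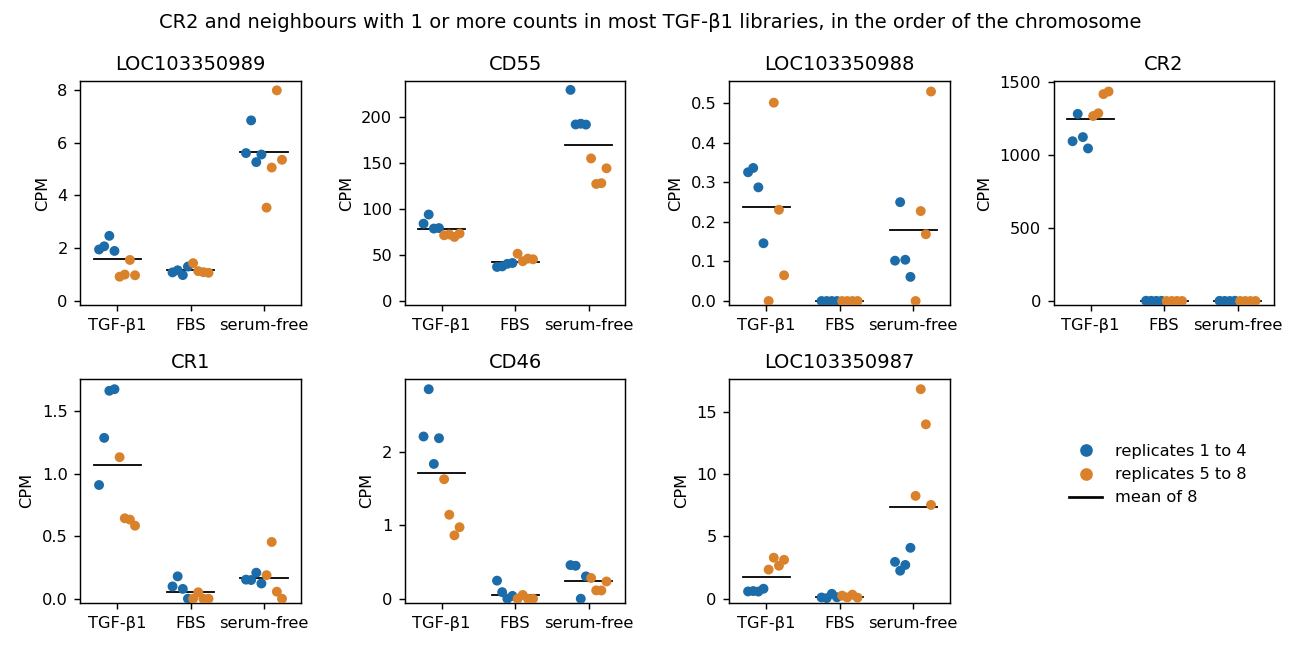
CR2 and the 6 neighbours with a count in most TGF-β1 libraries, in CPM (counts scaled to library size, vertical axes from 0, each with its own scale), with TGF-β1, FBS and serum-free medium from left to right in each panel; points are libraries coloured by replicate set and lines are means of 8. Panels follow the chromosome from upstream of CR2 to downstream of it. CD55 is highest in serum-free medium (127 to 229 CPM), and CR1 (0.585 to 1.68 CPM) and CD46 (0.864 to 2.86 CPM) are highest with TGF-β1.

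Within 500 kb, where 11 of 26 genes were tested, 4 rose and 6 fell with TGF-β1 against serum-free medium. Among all genes tested, 31.2% were higher and 33.1% lower in this comparison. CD34, a stem cell and keratocyte surface protein 237 kb downstream, was at 6.12 ± 0.734 CPM with TGF-β1, 13.0 ± 1.46 CPM with FBS and 240 ± 15.9 CPM in serum-free medium (log2 fold change with TGF-β1 -5.29, edgeR adjusted p = 1.30e-24). PLXNA2, a semaphorin coreceptor gene 372 kb downstream, rose with TGF-β1 (97.5 ± 22.3 CPM, against 29.0 ± 3.08 CPM in serum-free medium, 1.75, edgeR adjusted p = 1.33e-11). No tested gene within 500 kb other than CR2 exceeded a log2 fold change of 2.76 with TGF-β1 against serum-free medium.

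The genes with a name and a pattern most like that of CR2 were found by the root mean square difference of log2 CPM over the 24 libraries, after each gene had been centred on its own mean. LTBP2, a latent TGF-β binding protein family member of elastic microfibrils, was the closest at 1.28, with 1996 ± 235 CPM with TGF-β1, 1.25 ± 0.456 CPM with FBS and 3.48 ± 1.11 CPM in serum-free medium. SPP1 followed at 1.70, with 235 ± 24.5 CPM with TGF-β1, 0.567 ± 0.258 CPM with FBS and 0.869 ± 0.606 CPM in serum-free medium. LRRC15, a membrane protein marking TGF-β-driven fibroblasts of tumours, followed at 2.00 (376 ± 48.5 CPM with TGF-β1, 1.20 ± 0.347 CPM with FBS and 1.50 ± 1.41 CPM in serum-free medium). RASGEF1C, which encodes a guanine nucleotide exchange factor domain, stood at 2.14 and SLC37A2, a sugar-phosphate carrier, at 2.27. All 5 were above 60 CPM in every TGF-β1 library and below 6 CPM in every other library. They were picked for their likeness, so these levels are a description and carry no test. LTBP2 differed from CR2 in being lower with FBS than in serum-free medium in every library. With the Pearson distance in place of the root mean square difference, which ignores the size of a change, none of the 5 was kept (SLC39A14, VLDLR, TMEM135, POSTN and PXDN were then closest).

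**Figure D4:**
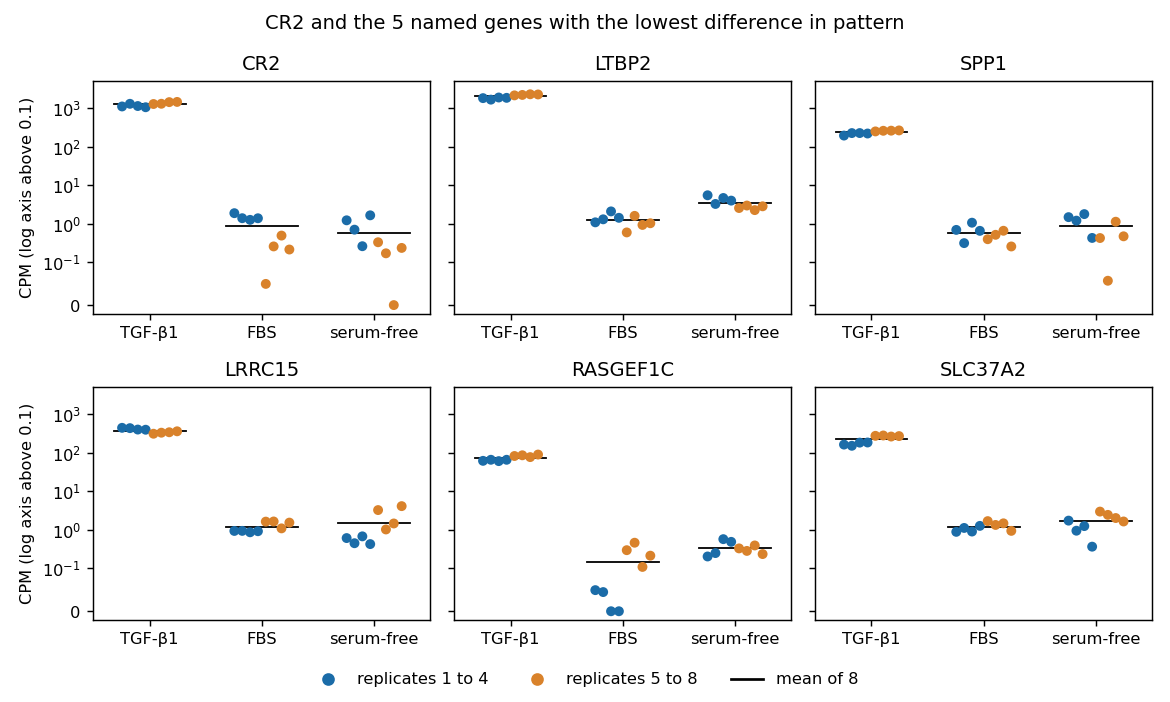
CR2 and the 5 named genes with the lowest root mean square difference from it, in CPM (counts scaled to library size, vertical axis, logarithmic above 0.1 and linear below), with TGF-β1, FBS and serum-free medium from left to right in each panel; points are libraries coloured by replicate set and lines are means of 8. LTBP2 reaches a mean of 1996 CPM and RASGEF1C one of 73.4 CPM with TGF-β1, and all 6 genes lie below 6 CPM in the other conditions.

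CD81 and IFITM1, subunits of the CR2 coreceptor, were not analysed here. Of the genes that signal next to it in B cells, the kinases SYK and BTK stood at 0.0182 and 0.0325 CPM with TGF-β1, the adaptor BLNK at 0.122 CPM and the phospholipase PLCG2 at 0.0178 CPM. Of 9 genes of the coreceptor and its proximal signalling in the table, 3 had enough counts to be tested. LYN, a kinase next to the receptor, rose with TGF-β1 but stayed low (0.998 ± 0.417 CPM, against 0.388 ± 0.215 CPM in serum-free medium, log2 fold change 1.33, edgeR adjusted p = 0.00108). PIK3R1, the regulatory subunit of phosphoinositide 3-kinase, fell (101 ± 23.4 CPM, against 145 ± 25.4 CPM in serum-free medium, -0.51, edgeR adjusted p = 0.00218). PIK3CD, a leukocyte catalytic subunit, fell as well (0.221 ± 0.195 CPM, against 0.690 ± 0.217 CPM in serum-free medium, -1.64, edgeR adjusted p = 0.000853), a call that set 2 alone did not give (-1.17, edgeR adjusted p = 0.125).

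B cell markers were near 0 where CR2 was high. The 13 B cell markers in the table summed to 0.949 to 2.24 CPM in the TGF-β1 libraries, 0.396 to 1.77 CPM in the FBS libraries and 2.05 to 5.23 CPM in the serum-free libraries. MS4A1 (CD20), CD79B, FCRLA and POU2AF1 were at 0 counts in all TGF-β1 libraries, which allows up to 0.0240 CPM each. JCHAIN, the joining chain of secreted antibodies and the only marker of the list that could be tested, fell with TGF-β1 (0.799 ± 0.432 CPM, against 2.46 ± 1.03 CPM in serum-free medium, -1.61, edgeR adjusted p = 4.95e-05). Without it the sums were 0.219 to 1.10 CPM with TGF-β1, 0.247 to 1.30 CPM with FBS and 0.500 to 1.84 CPM in serum-free medium. In bulk RNA, fewer cells of a type and less RNA per cell cannot be told apart.

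Of the genes typical of follicular dendritic cells, 3 that were picked after their values were seen were near 0 with TGF-β1: FDCSP, their secreted protein, averaged 0.0307 CPM, the chemokine CXCL13 0.00895 CPM and FCER2 (CD23) 0.0153 CPM. Of 14 genes listed for these cells, 8 were tested, and 3 rose and 3 fell with TGF-β1 against serum-free medium (median 0.09, beside -0.03 for all genes, of which 31.2% were higher and 33.1% lower). Other members were abundant: PDPN, the membrane protein podoplanin, averaged 1290 ± 123 CPM with TGF-β1 and 659 ± 72.8 CPM in serum-free medium (0.97, edgeR adjusted p = 3.29e-11), and MFGE8, a secreted protein that binds dying cells, 682 ± 73.2 CPM with TGF-β1 and 506 ± 81.0 CPM in serum-free medium (0.43, edgeR adjusted p = 0.00219). The adhesion molecule ICAM1 rose (155 ± 59.0 CPM, against 11.8 ± 6.64 CPM in serum-free medium, 3.71, edgeR adjusted p = 1.41e-10), and VCAM1 (-2.37, edgeR adjusted p = 0.00108) and CLU, the chaperone clusterin (-1.97, edgeR adjusted p = 3.01e-05), fell. VCAM1 passed the filter on low counts mainly through its serum-free libraries, with 7 to 95 counts each, against 0 to 14 with TGF-β1 and 0 to 6 with FBS. In set 2 alone it had too few counts to be tested. With no filter its difference was -2.34 (edgeR adjusted p = 0.00143). The tumour necrosis factor receptor TNFRSF1A, the most abundant of those not called, averaged 136 ± 14.3 CPM with TGF-β1 and 128 ± 33.2 CPM in serum-free medium (edgeR adjusted p = 0.601), and its sign differed between the sets. The 14 summed to 2413 to 2956 CPM with TGF-β1, 1855 to 3167 CPM with FBS and 1737 to 3754 CPM in serum-free medium.

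The 15 T cell and myeloid markers summed to 7.17 to 10.7 CPM with TGF-β1, 12.6 to 28.4 CPM with FBS and 5.81 to 9.22 CPM in serum-free medium, and CD68, a lysosomal protein, gave 6.63 CPM of it with TGF-β1, 18.3 CPM with FBS and 2.35 CPM in serum-free medium on average. Of 5 tested, 1 rose, 1 fell and 3 were not called with TGF-β1 against serum-free medium. Among all genes tested, 31.2% were higher and 33.1% lower. CD68 rose (6.63 ± 0.993 CPM, against 2.35 ± 0.873 CPM in serum-free medium, 1.49, edgeR adjusted p = 1.07e-06). CD8A, a T cell coreceptor, fell (0.0577 ± 0.0907 CPM, against 1.13 ± 0.508 CPM in serum-free medium, -4.03, edgeR adjusted p = 1.31e-05). CD8A passed the filter on low counts mainly through its serum-free libraries, with 10 to 39 counts each, against 0 to 4 with TGF-β1 and 0 to 20 with FBS. With no filter its difference was -4.01 (edgeR adjusted p = 2.71e-05). The pan-leukocyte gene PTPRC averaged 0.0288 CPM with TGF-β1, and CD74, the invariant chain of antigen-presenting cells, 0.0742 CPM, against 0.998 CPM in serum-free medium. Of the 7 keratocyte markers tested, 1 rose and 6 fell with TGF-β1 against serum-free medium, and all 8 myofibroblast markers rose. The shares of all genes were the same 31.2% and 33.1%. Next to KERA, OGN, the proteoglycan osteoglycin, fell by 4.09 on the log2 scale (-4.09), and TAGLN rose by 6.91 and POSTN, the matrix protein periostin, by 6.63. With FBS against serum-free medium, all 7 keratocyte markers fell. Of the 8 myofibroblast markers, 5 rose and 2 fell with FBS, beside 39.5% higher and 40.5% lower among all genes tested.

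C3, the source of the fragments that CR2 binds, was lower with TGF-β1 than in serum-free medium. It averaged 9.44 ± 2.79 CPM with TGF-β1, 5.81 ± 4.96 CPM with FBS and 55.5 ± 10.5 CPM in serum-free medium (TGF-β1 against serum-free medium -2.55, SE 0.39, edgeR adjusted p = 2.45e-06). Per length, C3 was at 3.49 ± 1.04 FPKM with TGF-β1, 2.14 ± 1.83 FPKM with FBS and 20.5 ± 4.05 FPKM in serum-free medium. Of 12 genes in the table for C3 and the proteins that cleave or steady it, 10 were tested, and 2 rose and 6 fell with TGF-β1 against serum-free medium (median -1.18), beside 31.2% higher and 33.1% lower among all genes tested.

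CFB, factor B of the alternative-pathway convertase, fell with TGF-β1 (30.1 ± 7.98 CPM, against 312 ± 52.5 CPM in serum-free medium, -3.37, edgeR adjusted p = 1.00e-07), as did C4A (-1.52), MASP1 (-1.90) and C5 (-2.71). C5 passed the filter on low counts mainly through its serum-free libraries, with 15 to 31 counts each, against 0 to 9 with TGF-β1 and 0 to 2 with FBS. It is among the genes counted as falling with TGF-β1 and with FBS, so those counts share this limit. With no filter the C5 difference with TGF-β1 was -2.69 (edgeR adjusted p = 7.53e-05). CFI, the protease factor I that turns C3b into iC3b, fell as well (2.31 ± 0.555 CPM, against 4.13 ± 0.670 CPM in serum-free medium, -0.84, edgeR adjusted p = 0.000101). C1S, a protease of the classical pathway, rose (251 ± 17.0 CPM, against 90.4 ± 33.7 CPM in serum-free medium, 1.47, edgeR adjusted p = 2.66e-05). C1R, the partner of C1S, did not pass (43.4 ± 13.1 CPM with TGF-β1 and 46.8 ± 16.9 CPM in serum-free medium, edgeR adjusted p = 0.799). With FBS against serum-free medium, 7 of these 10 genes fell and 3 did not pass, beside 40.5% lower among all genes tested. C1R was one of the 3 (-0.74, edgeR adjusted p = 0.0567) and passed with the replicate number as a block (-0.98, edgeR adjusted p = 0.000267).

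Of 9 tested complement receptors and regulators other than CR2, 3 rose and 5 fell with TGF-β1 against serum-free medium (median -0.84), beside the same shares of 31.2% and 33.1% among all genes. Besides CD46, CD93, a C-type lectin first described as a receptor for C1q, rose (4.87 ± 0.533 CPM, against 0.166 ± 0.150 CPM in serum-free medium, 4.85, SE 0.42, edgeR adjusted p = 1.72e-10). CD93 was the nearest to CR2 in direction and size on this list, and all its TGF-β1 libraries lay above all others. It was tested because of its TGF-β1 counts, 65 to 82 a library, against 0 to 7 in serum-free and 1 to 24 in FBS libraries. Fitted with no filter on low counts, the difference from serum-free medium was 4.87 (SE 0.42, edgeR adjusted p = 6.54e-11). The surface protein CD59, which blocks the membrane attack complex, fell (15.8 ± 1.25 CPM, against 59.8 ± 7.84 CPM in serum-free medium, -1.92, edgeR adjusted p = 2.30e-14), as did SERPING1, the C1 inhibitor (-1.84), CLU, CFI and CD55. Other complement receptors were near 0: ITGB2, a chain shared by complement receptors 3 and 4, averaged 0.0737 CPM with TGF-β1, ITGAX 0.0235 CPM, C3AR1 0.152 CPM and C5AR1 0.144 CPM, and VSIG4 had no count.

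Per length with TGF-β1, CR2 stood at 277 ± 33.1 FPKM, CLU at 171 ± 81.4 FPKM and CD55 at 38.5 ± 3.77 FPKM. CD46 stood at 1.43 ± 0.573 FPKM and CR1 at 0.158 ± 0.0660 FPKM.

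**Figure D5:**
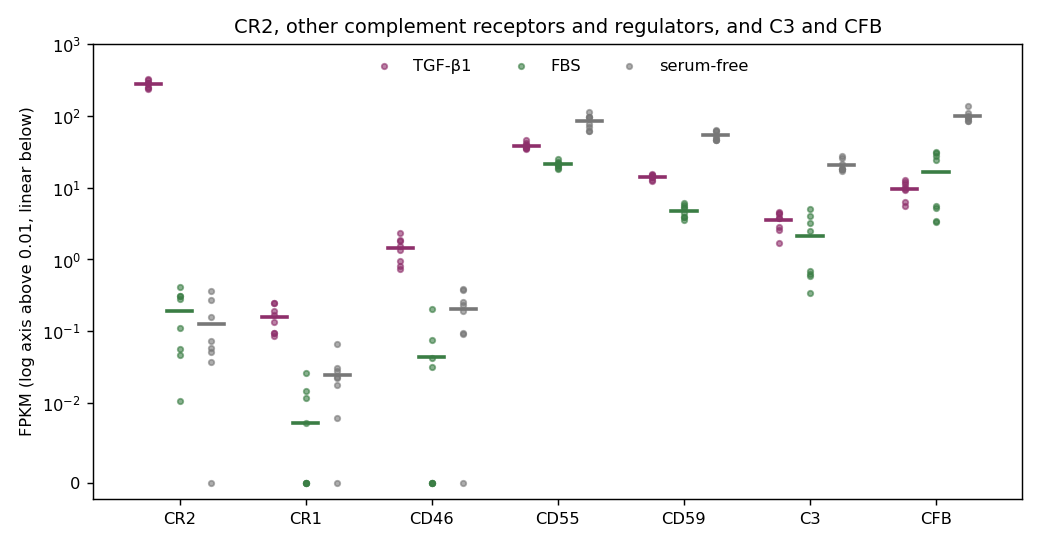
FPKM (fragments scaled to gene length and library size, vertical axis, logarithmic above 0.01 and linear below) of CR2, other complement receptors and regulators, and C3 and CFB, with TGF-β1, FBS and serum-free medium from left to right for each gene; points are libraries and bars are means of 8. CR2 has a mean of 277 FPKM with TGF-β1, while C3, CFB, CD55 and CD59 are highest in serum-free medium.

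Among 13 tested genes for transcription factors that have been reported to act on CR2 in B cells, 4 were higher and 5 lower with TGF-β1 than in serum-free medium (median -0.20), beside 31.2% higher and 33.1% lower among all genes tested. The NF-κB subunits RELB (14.0 ± 6.07 CPM, against 3.82 ± 2.05 CPM in serum-free medium, 1.87, edgeR adjusted p = 1.93e-05) and NFKB2 (0.95, edgeR adjusted p = 6.65e-05) rose. RBPJ, the DNA-binding partner of Notch, fell (29.8 ± 2.06 CPM, against 55.0 ± 6.35 CPM in serum-free medium, -0.88, edgeR adjusted p = 1.85e-10). NFAT5, the most abundant that was not called, averaged 497 ± 70.6 CPM with TGF-β1 and 589 ± 116 CPM in serum-free medium (edgeR adjusted p = 0.189), and its direction differed between the sets. The B cell factors PAX5 and EBF1 averaged 0.0886 and 0.610 CPM with TGF-β1, and SPI1 had no count in those libraries.

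Of 18 tested genes of the TGF-β pathway, 13 rose and 4 fell with TGF-β1 against serum-free medium (median 2.16), beside 31.2% and 33.1% of all genes tested. After LTBP2 (9.16), the largest changes were those of CDKN2B, a cell cycle inhibitor (51.3 ± 10.2 CPM, against 0.480 ± 0.360 CPM in serum-free medium, 6.70), and CTGF, a matricellular protein (4632 ± 996 CPM, against 135 ± 61.2 CPM in serum-free medium, 5.10). With FBS against serum-free medium, 9 of the 18 rose and 6 fell, beside 39.5% higher and 40.5% lower among all genes tested. CTGF was among those that rose (1725 ± 657 CPM with FBS, 3.67, edgeR adjusted p = 1.42e-12), while CR2 was at 0.864 CPM. CDKN2B was low in both conditions, at 0.469 ± 0.249 CPM with FBS and 0.480 ± 0.360 CPM in serum-free medium (log2 fold change -0.08). Its TGF-β1 libraries (578 to 1091 counts each) carried it past the filter on low counts. FBS libraries held 4 to 17 counts and serum-free libraries 0 to 26, so this difference is a description with no test. TGFBI did not pass with TGF-β1 over all libraries (548 ± 221 CPM, against 491 ± 92.1 CPM in serum-free medium, edgeR adjusted p = 0.485) and had opposite signs in the sets (-0.28 in set 1 and 0.41 in set 2).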

How the data were processed

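Deposited whole-number counts per gene, not normalized, and the authors' FPKM values, scaled per library, were used for the same 24 libraries. Per the labels, RNA was extracted with a column kit and libraries were made by a company. The sources used here do not give the aligner, counter, strand setting or genome build. Counts were fitted in R 4.3.3 with edgeR 4.0.16 (filterByExpr by condition, 13308 genes; TMM; all 24 libraries; quasi-likelihood F-test; Benjamini-Hochberg over all genes tested, called at an adjusted p under 0.05). Neighbours without enough counts had an exact permutation test of mean CPM, chosen after seeing the data. FPKM was tested with limma 3.58.1, and DESeq2 1.42.0 was an alternative. The edgeR step was tested on simulated data.

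Named genes are CR2, its neighbours within 200 kb, the 5 most like it, complement and coreceptor genes, and from each other list up to 3 called members with the largest change and the most abundant not called. Some members of the lists are counted but not reported here by name. FBS replicates 5 and 6, PTPRC, PLXNA2, PDPN, MFGE8, FDCSP, CXCL13, FCER2, PAX5, EBF1, SPI1 and the B cell markers at 0 were singled out after values were seen. The gene, its neighbours and the 10 lists (140 genes, 19 not analysed here, 2 matched by RefSeq number) were chosen with earlier results of these data known.

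Residuals of same-numbered libraries correlated at 0.177 to 0.362 (TGF-β1 and serum-free), 0.115 to 0.429 (FBS and serum-free) and 0.103 to 0.332 (TGF-β1 and FBS), so the number was also fitted as a block. The correlations between libraries of different numbers were not computed. These values therefore cannot separate a pairing by number from the difference between the sets. The closest replicates, FBS 1 and 2, differed by more than counting error (chi-square per gene 2.86).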

Additional observations from a re-analysis of the deposited data

Results flagged for a closer look

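Of 150 groups of 8 libraries (50 genes in 3 conditions), 9 had a highest library whose gap to the next exceeded Dixon's 95% critical value. Chance gives such a gap in about 1 in 20 groups.

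Among the neighbours of CR2, CD46 was at 0.246 CPM in FBS replicate 1, with the next library at 0.0895 CPM. CR1 was at 0.455 CPM in serum-free replicate 6 (next 0.208 CPM) and LOC103350988 at 0.529 CPM in serum-free replicate 8 (next 0.250 CPM). JCHAIN was at 1.79 CPM in TGF-β1 replicate 2 (next 0.807 CPM), CD8A at 2.19 CPM in serum-free replicate 7 (next 1.29 CPM) and PIK3CD at 0.644 CPM in TGF-β1 replicate 6 (next 0.288 CPM). VAV1, a signalling adaptor of the CR2 coreceptor, stood out in TGF-β1 replicate 5 (0.283 CPM, next 0.130 CPM) and in serum-free replicate 5 (1.70 CPM, next 0.852 CPM). CFB was at 428 CPM in serum-free replicate 8 (next 339 CPM). None of the 3 CR2 groups was among them.

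The effect on CD55 differed between the sets of replicates in a set-by-condition term in edgeR. FBS against serum-free medium was 0.79 higher on the log2 scale in replicates 5 to 8 than in replicates 1 to 4 (edgeR adjusted p = 1.45e-05), and TGF-β1 against FBS was smaller there (difference -0.48, edgeR adjusted p = 0.00348). CD55 fell with FBS in both sets (-1.57 in replicates 5 to 8 and -2.36 in replicates 1 to 4). Over all genes, 22.4% were called for that term in FBS against serum-free medium and 23.9% in TGF-β1 against FBS.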

How the results depend on the processing

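The log2 fold change of CR2 with TGF-β1 moved to 7.95 (against serum-free medium) and 7.87 (against FBS) with log2(FPKM + 1), whose pseudocount is above its low levels, and to 12.75 and 12.38 in replicates 5 to 8 alone. Leaving out 1 library gave 10.90 to 11.49 and 10.28 to 10.68, and the replicate block 11.19 and 10.56. CR2 in FBS against serum-free medium was 0.41 to 1.03 without 1 library and 0.63 with the block. Called neighbours numbered 8 in FBS against serum-free medium with no filter, and 2 in TGF-β1 against FBS with the 16 libraries fitted alone or with log2(FPKM + 1). Within 500 kb they numbered 10, 9 and 9 of 11 tested, since more genes are counted. Among all genes tested, 64.3%, 80.0% and 73.3% were called. Without 1 library the called neighbours within 200 kb were 4 to 5, 4 to 5 and 3 to 5. The Pearson distance kept 0 of the 5 genes most like CR2.

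Of 1559 other values for 46 single-gene results, 1528 kept their direction and side of the threshold, 21 lost a call, 4 gained one and 6 changed sign: TNFRSF1A (-0.065 by total library size, -0.094 in replicates 5 to 8), TGFBI (-0.28 in replicates 1 to 4), NFAT5 (0.037 in replicates 5 to 8), LOC103350989 in TGF-β1 against FBS (-0.075 in replicates 5 to 8) and C1R (0.041 without serum-free replicate 8, -0.20 to 0.041 without 1 library). The cause was not tested. That LOC103350989 call was also lost without any 1 of 11 libraries and under the block. Among neighbours and list members tested, the block changed no call in TGF-β1 against serum-free medium, gave that of C1R in FBS against serum-free medium, and gave those of TAGLN, C3, C1R, C4A and CREB1 in TGF-β1 against FBS. By total library size the median of all genes moved to -0.17, 0.21 and -0.39, and calls to 3215 higher and 5368 lower, 6219 and 4450, and 3131 and 6819, beside 4155 and 4408, 5257 and 5386, and 4917 and 4840. Depth limits statements on CR2 in FBS and serum-free libraries, where 1 count is a large share of its level.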
